A study of Mus musculus with 21 samples.

Results

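The hearts of mice that received renin while eating chow were compared with the hearts of mice on chow without it. Renin was delivered by an adeno-associated virus (AAV), and the comparison takes 10 of the 21 heart libraries of the study, 6 labelled chow Renin and 4 labelled chow novirus, chosen by their diet and treatment labels. All mice were male C57BL/6NJ, 8 to 10 weeks old when assigned to a diet, and hearts were taken 6 weeks after the vector or its control was injected behind the eye. The series text calls the control a null vector, whereas the sample labels call it novirus. The sources used here do not give the promoter of the vector, the tissue in which it acts or the form of renin it carries. The study compared control hearts with those of mice given renin, 10 weeks of a high-fat diet (HFD, 60% of kcal), or both, the last as a model of HFpEF, a heart failure in which the ventricle still empties normally. The other 11 libraries, 6 HFD novirus and 5 HFD Renin, share the estimate of spread in the fit, and below they give the levels and the effect of renin on HFD and the test of whether an effect on chow differed from it. RNA came from whole frozen heart tissue, so fewer cells of a type and less RNA per cell cannot be told apart.

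Renin is the kidney protease that cuts angiotensinogen, a liver protein, to angiotensin I. Angiotensin converting enzyme then makes angiotensin II, which acts on the heart and vessels mainly through the type 1 angiotensin receptor, raises blood pressure and, through aldosterone, retains salt. A heart that works against raised pressure is known for a return of fetal genes, such as the slow myosin Myh7, skeletal actin Acta1 and the natriuretic peptides Nppa and Nppb, and for deposition of collagen and other matrix by fibroblasts. The adult mouse heart lives largely on fatty acid oxidation in its mitochondria, contracts with the fast myosin Myh6, and holds few neurons and no oligodendrocytes.

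Chow novirus libraries held 18.7 to 21.4 M estimated reads (19.9 ± 1.32, SD, n = 4) and chow Renin libraries 24.4 to 27.4 M (25.7 ± 1.25, n = 6), so the renin libraries were all deeper. Mitochondrially encoded genes took 32.9% ± 0.725 and 32.6% ± 1.22 of the reads. Ren1, the endogenous renin gene, had 1 read in 1 of the 10 chow libraries, so the counts do not check which hearts came from mice given the vector. Atrial transcripts, read from the atrial myosin light chain Myl7, were high in 3 libraries. Myl7 was at 254 CPM (counts per M reads) in chow novirus replicate 3, at 180 and 103 in chow Renin replicates 1 and 3, and between 0.278 and 2.98 in the other 7. Chow Renin replicate 6 stood apart in another way, with the lowest Myh7, Acta1, Ankrd1, Nppa and Nppb of its group.

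Among genes of at least 20 CPM, averaged over the 10 chow libraries, the renin hearts had a small set of strong rises and a larger set of shallow falls. Of 5529 such genes, 536 were called (9.69%) at a Benjamini-Hochberg adjusted p under 0.05 by edgeR's quasi-likelihood test, 147 higher (2.66%) and 389 lower (7.04%). At an unadjusted p under 0.05 there were 1362. The median rise among the calls was 0.53 on the log2 scale and the median fall -0.26. At least 2-fold rises numbered 43, and at least 2-fold falls numbered 2, both processed pseudogenes. Of the 147 rises, 53 reached 20 CPM only through the renin libraries, with a control mean below it, so the filter itself admits strong rises. The 6 renin values did not overlap the 4 control values for 128 of the rises and 252 of the falls, and among all 5529 genes for 171 that were higher and 549 that were lower. Below 20 CPM, 1512 of 9687 genes were called (15.6%), 1390 of them higher (14.3%) and 122 lower (1.26%), with a median rise of 1.62.

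The number of falls depended on scaling, and that of rises did so less. The median log2 fold change of all genes of at least 20 CPM was -0.07. When the library scale was set from these genes instead, that median moved to -0.0023 and the calls became 228 higher and 102 lower. When these genes were fitted alone the median was -0.0023 too and the calls became 178 and 55. Counts given below as fitted alone are to be read beside those 178 and 55 of 5529. All 55 of those falls, and 146 of those 178 rises, were also called in the fit over all genes. Of the 40 falls described below, 20 were also called when fitted alone, and the other 20 were not (adjusted p 0.0548 to 0.273). Those not called were Gm12671, Gm10359, Kpna2, Kcnq1, Rnpep, Myh6, Tpm1, Srl, Jph2, Adrb1, Esrra, Atp5g1, Cs, Dbp, Usp2, Hspa5, Pdia6, Hsp90b1, Hspd1 and Sod2. With upper-quartile factors the split was 178 and 198. Single libraries mattered too. The falls numbered 134 or 108 without chow novirus replicate 1 or 2, and 168, 178 or 234 without chow Renin replicate 1, 3 or 5. Over all 10 such omissions the rises numbered 121 to 151. Leaving out the 3 libraries with atrial RNA gave 127 rises and 155 falls. With the central neuron score as a covariate there were 11 rises and 1 fall, but that score (mean log2 CPM of the neuron markers) was 1.68 to 1.93 in control and 3.43 to 4.23 in renin libraries, so it cannot be told apart from the groups.

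**Figure D1:**
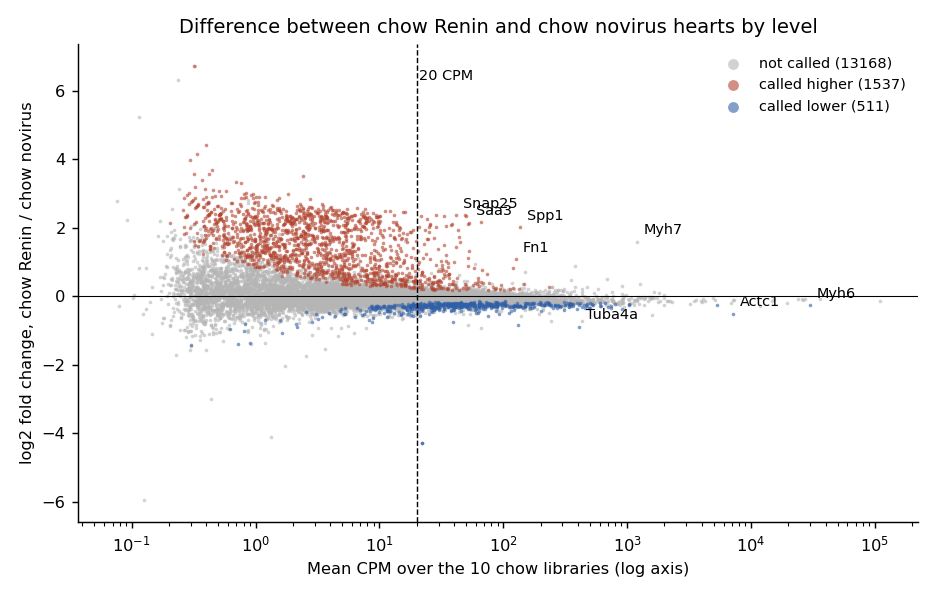
Each point is 1 of 15216 genes, with its mean CPM over the 10 chow libraries on a log axis and its log2 fold change between chow Renin and chow novirus. Rises (1537) lie mostly left of the 20 CPM line and reach far from 0, whereas falls (511) lie mostly right of it and close to 0, and Myh7 is high without being called.

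The 20 CPM line cuts through a continuous spread. Just outside it lay Nptxr at 19.8, Kyat1 at 19.9 and Bcs1l at 19.97 CPM, with log2 fold changes of 1.61, -0.30 and -0.32. Just inside lay Dolk at 20.02, Ppp1r3b at 20.2 and Mrpl46 at 20.3 CPM, with -0.31, -0.48 and -0.23. The mean that places a gene includes the renin libraries. Of the 147 rises, 53 had a control mean under 20 CPM, and 46 were under 20 CPM in the HFD libraries, which do not enter that mean.

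The largest rises were of genes of neurons and glia. Snap25, a synaptic vesicle fusion protein, measured 12.7, 13.4, 9.29 and 11.8 CPM in the control libraries and 47.3 to 83.1 CPM in the renin libraries (median 55.4). Renin replicates 1 and 2 were the highest, and every renin library lay far above every control. It rose 5.20-fold, or by 2.38 on the log2 scale (SE 0.19, edgeR adjusted p 1.74e-08). Slc1a2, the glutamate transporter of astrocytes (GRCm38 chr2:102658659-102790784), measured 13.7, 15.9, 11.9 and 14.5 CPM against 53.2 to 94.5 (median 67.5), again highest in replicates 1 and 2 and without overlap. It too changed by 2.38 (SE 0.18, edgeR adjusted p 1.04e-08). Syt1, the calcium sensor of synaptic vesicles, rose by 2.36. Kif5a, a motor of axonal transport, rose by 2.18, Map2, a dendritic microtubule protein, by 2.09, and Snhg11 by 2.35. Mbp, a myelin gene of oligodendrocytes, rose by 2.08. Slc17a7, a vesicular glutamate transporter, rose by 1.01 and Camk2a, a calcium-dependent kinase, by 0.84.

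As a group, 27 of 27 central neuron markers tested at any level were called higher, with a median log2 fold change of 2.25 beside -0.03 over all 15216 genes (13.5% called, 10.1% higher and 3.36% lower). Of the 5 that reached 20 CPM, 3 did so only through the renin libraries, with a control mean below it. Of oligodendrocyte markers 13 of 15 rose, and of astrocyte markers 9 of 15. At 20 CPM and above 2 of 4 astrocyte markers were called higher and the other 2 had negative log2 fold changes. Slc1a2 reached that level only through the renin libraries. Of the 3 with a control mean of at least 20 CPM 1 was called higher. Summed astrocyte markers, which include genes the heart also expresses, overlapped at 1599 to 1841 CPM in control and 1594 to 1699 CPM in renin libraries. Of peripheral nerve markers, 2 of 9 for Schwann cells and 2 of 6 for neurons were called higher, with medians of -0.02 and -0.10. The summed level of the 27 central neuron genes was 188 to 213 CPM in control and 463 to 560 CPM in renin replicates 3 to 6, and it was 712 and 745 CPM in replicates 1 and 2. In the 11 HFD libraries it was 161 to 261 CPM.

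A second group of strong rises held cytokines, growth factors and other genes of stimulated cells. Saa3, an acute-phase protein made outside the liver (chr7:46711998-46715700), measured 18.4, 17.5, 16.7 and 16.6 CPM in control and 72.5 to 80.3 CPM in renin libraries (median 76.9). The 6 renin values lay close together, and none came near a control. It rose by 2.15 on the log2 scale (SE 0.06, edgeR adjusted p 2.6e-17). Spp1, the secreted matrix protein osteopontin (chr5:104435118-104441050), measured 50.9, 52.9, 43.5 and 43.1 CPM against 175 to 221 (median 187), a change of 2.03 (SE 0.09, edgeR adjusted p 1.69e-13). Here the highest renin libraries were replicates 3 and 4, and the lowest was replicate 1.

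Other members of that group moved by about as much. The neutrophil chemokines Cxcl5 and Cxcl3 rose by 2.25 and 2.11 on the log2 scale. Ptgs2, the inducible cyclooxygenase, rose by 2.11, from 15.7 to 19.1 CPM in control to 69.6 to 81.4 CPM. Ereg, a ligand of the epidermal growth factor receptor, rose by 2.10, the bone morphogenetic protein antagonist Grem1 by 2.33 and the cytokine Lif by 2.06. Of 28 stimulated-cell genes tested at any level 25 were called higher, with a median of 1.81, beside 10.1% and -0.03 over all genes. That list was made with earlier results of these data known, and of its 12 genes of at least 20 CPM 9 had a control mean below it. Their summed level was 290 to 328 CPM in control and 847 to 1026 CPM in renin libraries. It was lowest in replicates 1 and 2, the libraries with the most central neuron RNA, and 277 to 390 CPM in the 11 HFD libraries. In a list of chemokine and acute-phase genes 12 of 29 were called higher and 0 lower, with a median of 0.24. Of its 7 genes of at least 20 CPM 4 were called higher, each with a control mean below it. The other 3 had negative log2 fold changes and were not called. Whether the neuronal, glial and stimulated-cell transcripts came from cells of these hearts or from RNA of another sample carried into the 6 chow Renin libraries, and their part in the results below, was not tested. Saa3, Cxcl5, Cxcl3, Grem1, Ptgs2, Ereg, Lif and Spp1 kept their calls under each alternative run.

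**Figure D2:**
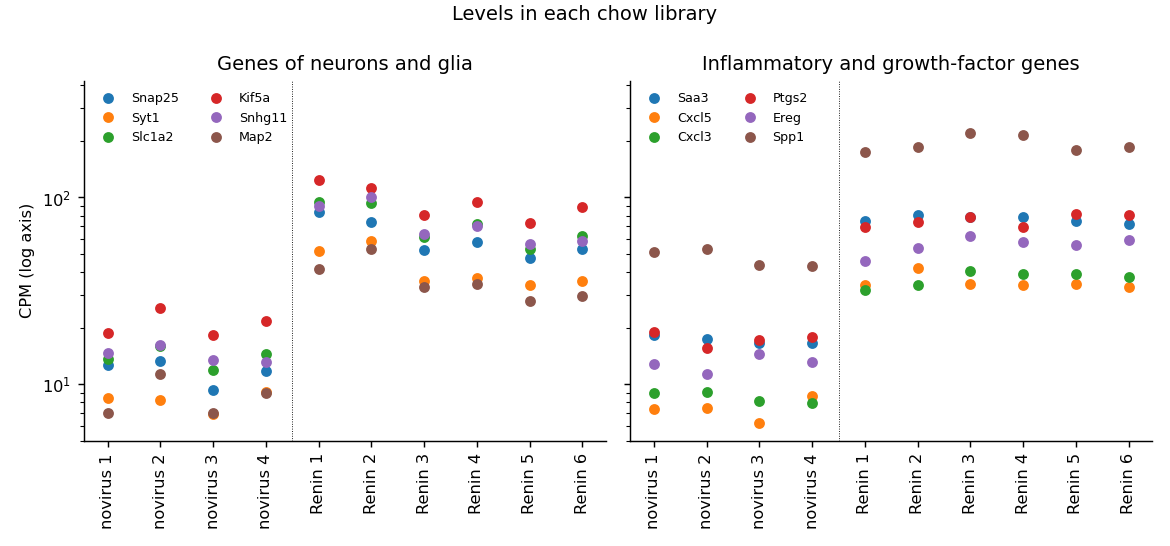
CPM on a log axis of 6 genes of neurons and glia (left) and 6 inflammatory and growth-factor genes (right) in each of the 4 chow novirus and 6 chow Renin libraries, 1 point per library. On the left, Renin replicates 1 and 2 are above the other 4 renin libraries, and on the right the 6 renin libraries are level, Saa3 between 72.5 and 80.3 CPM.

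Markers of immune and vessel cells moved little beside these genes. Of 27 macrophage markers 1 was called higher and 2 lower (median -0.17), and of 30 interferon response genes 4 were higher and 0 lower (median 0.12), beside 10.1% higher and 3.36% lower over all genes tested. Summed macrophage markers were 334 to 473 CPM in control and 289 to 382 CPM in renin libraries. Of 25 endothelial genes 0 were called by edgeR, 3 had an unadjusted p under 0.05 and DESeq2 called 2, with a median of -0.12. Of 28 proliferation genes 22 rose (10.1% over all genes tested), with a median of 1.01, and 2 of the 28 reached 20 CPM.

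Below 20 CPM, cytokine genes and neuronal genes were among the smallest p-values. Cxcl1, a neutrophil chemokine, measured 6.13, 5.67, 6.39 and 6.35 CPM in control and 18.7 to 24.6 CPM (median 21.8) in renin libraries, a change of 1.83 (SE 0.10, edgeR adjusted p 9.4e-12). Ccl2, the monocyte chemokine, rose by 2.0 and the cytokine Il11 by 2.02. Tspoap1, a protein of the presynaptic active zone, rose by 2.47 and Trank1 by 2.49. Ppp2r2c, a phosphatase subunit, rose by 2.17, Zfp365 by 2.03 and Srgap3, a regulator of neurite growth, by 1.94. In Trank1, Zfp365, Ppp2r2c and Srgap3, renin replicates 1 and 2 were the highest of the 6.

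Among matrix genes the rises were of a few secreted and crosslinking proteins, while no collagen gene of at least 20 CPM was called. Fn1, which encodes fibronectin (chr1:71585520-71653200), measured 64.9, 65.6, 99.9 and 69.7 CPM in control and 132 to 195 CPM (median 157) in renin libraries. Control replicate 3, the control with atrial RNA, was the highest control and still lay below all 6 renin libraries. The rise was 1.09 on the log2 scale (SE 0.21, edgeR adjusted p 0.000923). Thbs1, encoding thrombospondin 1, rose by 1.72 (SE 0.36, adjusted p 0.00262) from 13.8, 14.0, 34.8 and 11.1 CPM to between 38.2 and 85.9 (median 58.2). Its control replicate 3 lay close to the lowest renin library. Lox, the enzyme that crosslinks collagen, measured 9.11, 10.3, 9.4 and 7.18 CPM against 27.6 to 53 (median 30.7), highest in renin replicates 1 and 2, and rose by 2.01 (SE 0.21). With the central neuron covariate Fn1, Lox and Thbs1 had log2 fold changes of 0.79, -0.09 and -0.28, and none was called (adjusted p 0.941, 0.995 and 0.995), but that score does not overlap between the groups.

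Of 25 matrix genes of at least 20 CPM, 6 were called higher and 0 lower, with a median of 0.13, beside 2.66%, 7.04% and -0.07 for all genes at that level. Of the 23 with a control mean of at least 20 CPM, 4 were called higher. Of 12 collagen genes at that level 0 were called by edgeR or DESeq2, 0 had an unadjusted p under 0.05, and their median was -0.10. At any level 1 of 22 collagen genes and 10 of 44 matrix genes were called higher and 0 lower, beside 10.1% and 3.36% over all genes. DESeq2 called 2 and 11 of them. Col1a1, a chain of the main fibrillar collagen, measured 77.9, 81.3, 155 and 88.5 CPM in control and 77.2 to 143 CPM (median 98.5) in renin libraries, so the groups overlapped throughout. Its log2 fold change was 0.01 (SE 0.32, adjusted p 0.988). Col3a1 changed by -0.21, Postn, a fibroblast activation gene, by 0.18 and Col8a1, which lay under 20 CPM, by 0.45. None of them was called (adjusted p 0.754, 0.876 and 0.258). The basement membrane chains Col4a1 and Col4a2 changed by -0.13 and -0.11 (adjusted p 0.684 and 0.677). For Col1a1 and Postn the highest control was replicate 3, and the direction of the change turned with the libraries used.

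Of 7 genes of the renin-angiotensin system of at least 20 CPM 1 was called, a fall, beside 7.04% lower over all genes at that level. DESeq2 called 2. Agt, which encodes angiotensinogen, was at 0.797, 1.78, 1.30 and 0.970 CPM in control and 0.942 to 1.44 CPM in renin libraries, with no difference detectable at this depth (log2 fold change 0.01, SE 0.29, adjusted p 0.986). Ace, the angiotensin converting enzyme, measured 67.1, 70.0, 80.1 and 58.8 CPM against 47.8 to 77.7 (median 61.7) and changed by -0.16 (adjusted p 0.553).

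Agtr1a, the type 1 angiotensin receptor, measured 34.7, 39.8, 31.7 and 44.1 CPM in control and 28.1 to 31.4 CPM (median 30.4) in renin libraries. The groups did not overlap, although the lowest control, replicate 3, lay within 1 CPM of the highest renin library. Its log2 fold change was -0.33 (SE 0.13), and the adjusted p of 0.119 did not pass. With only the 10 chow libraries in the fit it did, at 0.0143. The call in the group was that of Rnpep, an aminopeptidase, which fell by 0.26 (SE 0.07, adjusted p 0.0104, and 0.059 without chow novirus replicate 4). That call was also lost when genes of at least 20 CPM were fitted alone (adjusted p 0.118), when they set the scale, and without the 3 libraries with atrial RNA or renin replicates 1 and 2. All 7 members of at least 20 CPM had negative log2 fold changes, with a median of -0.16 beside -0.07 for all genes at that level.

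Of the fetal and stress genes of cardiomyocytes, Myh7 was high in most renin hearts without passing the test, and the natriuretic peptides overlapped between groups. Myh7 measured 584, 459, 744 and 375 CPM in control. In renin replicates 1 to 6 it measured 1268, 1053, 2357, 2513, 2300 and 295 CPM. In 5 renin hearts it lay above every control, and in replicate 6 it lay below every control. The log2 fold change of 1.59 (SE 0.53) had an adjusted p of 0.0571, and without renin replicate 6 it was 1.81 with an adjusted p of 0.0101. DESeq2 called it as well (adjusted p 0.00338). So did edgeR with replicate number as a block (1.80, adjusted p 0.023) and with the scale set from genes of at least 20 CPM (1.66, adjusted p 0.0498). Over the 25 alternatives its adjusted p ran from 0.00338 to 0.506.

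Acta1, skeletal actin, measured 194, 251, 422 and 142 CPM in control and 383, 724, 567, 443, 611 and 41.9 CPM in renin replicates 1 to 6, with the same heart at the bottom. Its change of 0.87 (SE 0.57) did not pass (adjusted p 0.388), and it was 1.11 with an adjusted p of 0.107 without renin replicate 6. Nppa, atrial natriuretic peptide, measured 263, 149, 534 and 193 CPM against 54.7 to 462 (median 308) and changed by 0.02 (SE 0.66, adjusted p 0.989). Its highest control was replicate 3, which carried atrial RNA. Nppb changed by -0.30, Ankrd1, a stretch-responsive repressor, by 0.36 and the intercalated disc gene Xirp2 by 0.26 (adjusted p 0.806, 0.572 and 0.611). Of 19 cardiac stress genes of at least 20 CPM 1 was called, a fall, that of Actc1, beside 7.04% lower over all genes at that level, and DESeq2 called 2.

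**Figure D3:**
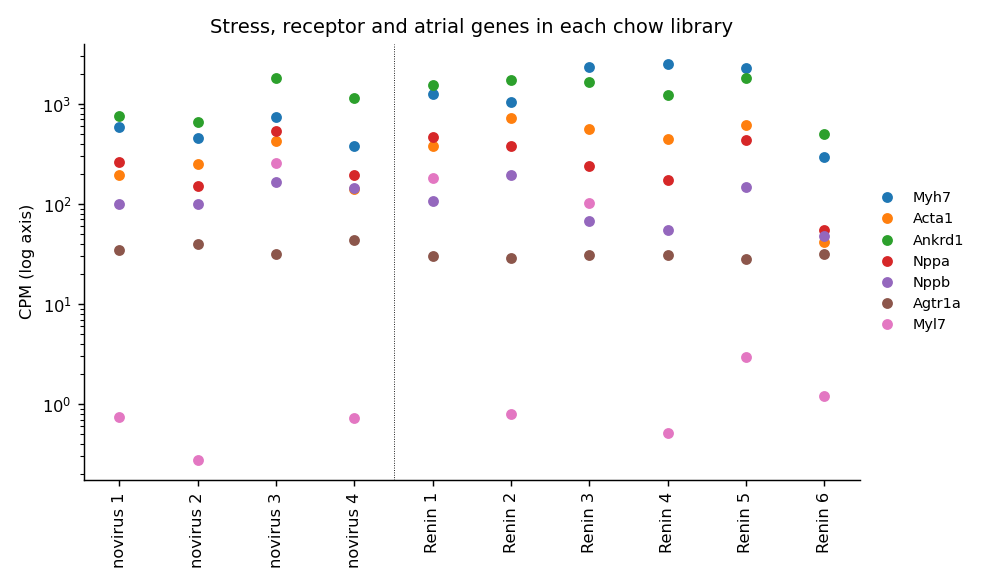
CPM on a log axis of Myh7, Acta1, Ankrd1, Nppa, Nppb, Agtr1a and the atrial marker Myl7 in each of the 10 chow libraries, 1 point per library. Renin replicate 6 is the lowest for Myh7 (295 CPM) and Acta1 (41.9 CPM), and Myl7 is above 100 CPM in novirus replicate 3 and Renin replicates 1 and 3 alone.

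After 2 processed pseudogenes, the largest falls without overlap between the groups were those of Tuba4a, Fbxl22 and Actc1. Tuba4a, an alpha tubulin (chr1:75214228-75219865), measured 679, 658, 406 and 497 CPM in control and 259 to 340 CPM (median 316) in renin libraries. No renin library reached the lowest control, and the controls themselves spread widely. The change was -0.88 (SE 0.16, edgeR adjusted p 0.000373), or 45.7% lower, and Tuba4a was the 1 call among 10 tubulin genes of at least 20 CPM, beside 9.69% called over all genes at that level (DESeq2 called 2). At any level 4 of 13 tubulin genes were called, 3 of them higher. Fbxl22, a subunit of a ubiquitin ligase of the sarcomere's Z-disc, measured 58.1, 64.0, 38.7 and 46.4 CPM against 27.0 to 35.4 (median 30.3). Its change of -0.75 (SE 0.15, edgeR adjusted p 0.000767) again came with control replicate 3 as the control nearest to the renin hearts.

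Actc1, cardiac actin, measured 9219, 9887, 7189 and 8262 CPM in control and 5061 to 6892 CPM (median 6167) in renin libraries. The groups did not overlap, and the change was -0.50 (SE 0.11, edgeR adjusted p 0.00154). Lmod3, which nucleates actin thin filaments, fell by 0.43 (SE 0.08, adjusted p 0.000478), from 103 ± 4.58 to 76.0 ± 3.83 CPM (SD, n = 4 and 6). Tmod1, which caps the pointed end of the thin filament, fell by 0.27, Fblim1, a filamin-binding adhesion protein, by 0.41 and the smooth muscle protein Smtn by 0.34. Each of Tuba4a, Fbxl22, Actc1, Lmod3, Tmod1, Fblim1 and Smtn was also called when genes of at least 20 CPM were fitted alone, and none lost its call when 1 chow library was left out.

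The call on the main adult myosin depended on single libraries and on the processing. Myh6 measured 34137, 35147, 29180 and 33184 CPM in control and 26787 to 29018 CPM (median 27382) in renin libraries, so control replicate 3 lay just above the highest renin heart. The change was -0.25 (SE 0.08, edgeR adjusted p 0.0285). Of the 10 fits that left out 1 library, 8 lost the call, those without renin replicates 1 to 5 or novirus replicates 1, 2 or 4 (adjusted p 0.0524 to 0.158). The log2 fold change stayed between -0.31 and -0.21 in these 10 fits. Tpm1, tropomyosin, fell by 0.25 and lost its call in 7 such fits, without renin replicates 1, 2, 3 or 5 or novirus replicates 1, 2 or 4 (adjusted p 0.0504 to 0.0945). Of 32 sarcomere genes of at least 20 CPM, 4 fell and 0 rose, with a median of -0.12, beside 7.04%, 2.66% and -0.07 for all genes at that level. When fitted alone 1 fell, and the median was -0.05, beside 55 of 5529 and -0.0023 for all genes in that fit.

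In calcium handling 4 of 19 genes fell and 2 rose, beside 7.04% and 2.66% of all genes of at least 20 CPM. When fitted alone 0 fell and 2 rose, beside 55 and 178 of 5529 genes in that fit. The rises included Camk2a, given above among the neuronal genes. Srl, a sarcoplasmic reticulum protein, fell by 0.34 (adjusted p 0.0335) and Jph2, which holds that membrane to the T-tubule, by 0.29 (adjusted p 0.045). Each lost its call in 7 of 10 fits that left out 1 library, without renin replicates 1 to 5 or novirus replicates 1 or 2 (adjusted p up to 0.183 and 0.215). Kcnq1, the slow potassium channel of repolarization, fell by 0.41 (SE 0.10, adjusted p 0.00792). It measured 35.0, 33.4, 36.1 and 37.8 CPM in control and 21.3 to 33.4 CPM in renin libraries, where replicate 6 lay level with the lowest control and the others were lower, and it was not called when genes of at least 20 CPM were fitted alone (adjusted p 0.0798). Adrb1, the main beta-adrenergic receptor of the heart, fell by 0.41 (SE 0.12, adjusted p 0.0269). Renin replicate 4, at 22.23 CPM, reached the lowest control, at 22.17 CPM, and the other 5 lay below every control. That call was lost without renin replicates 1, 2 or 3 or novirus replicates 1, 2 or 4 (adjusted p 0.0563 to 0.0928).

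**Figure D4:**
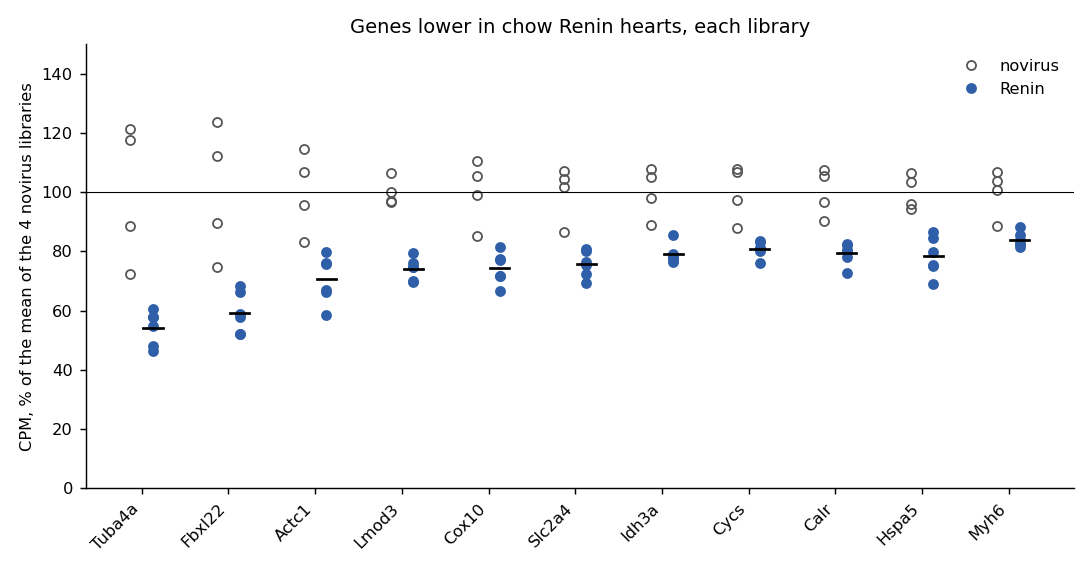
CPM of 11 genes called lower, in percent of the mean of the 4 chow novirus libraries, with open circles for novirus, filled circles for Renin and a bar at the Renin mean. The falls reach from 45.7% in Tuba4a to 16.0% in Myh6 by the fitted fold change, and the lowest control comes close to the highest renin heart for most.

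Nuclear genes of the mitochondrial respiratory chain were slightly lower as a group. All 78 had negative log2 fold changes, between -0.31 and -0.04, with a median of -0.17 beside -0.07 for all genes of at least 20 CPM. Of the 78, 13 were called lower and 0 higher, beside 7.04% and 2.66% of all genes at that level. Fitted alone, 2 were called lower, beside 55 of 5529, and the median was -0.10, beside -0.00 for all genes in that fit. Cycs, which encodes cytochrome c, measured 411, 407, 335 and 371 CPM in control and 290 to 318 CPM (median 309) in renin libraries, without overlap. Its fall of 0.31 (SE 0.07, edgeR adjusted p 0.00198) and that of Sdhd, a succinate dehydrogenase subunit, of 0.28 (adjusted p 0.00137) were the ones called in both fits. Atp5g1, of the ATP synthase rotor, fell by 0.29 (adjusted p 0.0171) and lost its call without renin replicate 3 or novirus replicate 1 or 2 (adjusted p 0.0534 to 0.0886). Cox10, which builds the heme of cytochrome oxidase, fell by 0.43 (SE 0.08, adjusted p 0.000345) and was called in both fits. Of the 13 mitochondrially encoded genes 0 were called by edgeR or DESeq2 and 1 had an unadjusted p under 0.05, with a median of -0.09.

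The citric acid cycle and glucose use gave a few falls of the same size. Idh3a, a subunit of isocitrate dehydrogenase, measured 550, 564, 464 and 512 CPM in control and 400 to 446 CPM (median 408) in renin libraries, a fall of 0.34 (SE 0.07, edgeR adjusted p 0.000737) without overlap. Of 20 citric acid cycle genes 4 fell and 0 rose, with a median of -0.16, beside 7.04% lower over all genes at that level. When fitted alone 1 fell, Idh3a, and the median was -0.09, beside 55 of 5529 and -0.0023 for all genes in that fit. Among the 4 was Cs, citrate synthase, which fell by 0.25 and lost its call in 6 of 10 fits that left out 1 library, without renin replicates 1, 3 or 5 or novirus replicates 1, 2 or 4 (adjusted p 0.0671 to 0.133).

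Among the glucose genes a transporter of the basal type rose while the insulin-responsive one fell. Slc2a1, the basal glucose transporter, measured 24.7, 27.9, 23.6 and 24.8 CPM against 28.8 to 38.0 (median 34.3), a rise of 0.44 (SE 0.10, edgeR adjusted p 0.00359). Slc2a4, the transporter that insulin brings to the surface, measured 381, 390, 315 and 370 CPM against 252 to 294 (median 276), a fall of 0.40 (SE 0.08, adjusted p 0.000828). Neither gene's groups overlapped, and both calls were lost with a score of clock genes as covariate. Eno3, muscle enolase, fell by 0.37 and Hk1, a hexokinase, by 0.30 (adjusted p 0.00294 and 0.00202). Of 32 glucose genes 4 fell and 1 rose, and when fitted alone 3 and 1. Of 36 fatty acid oxidation genes 1 fell, with a median of -0.09, and 0 when fitted alone. Over all genes of at least 20 CPM 7.04% fell and 2.66% rose, and when fitted alone 55 and 178 of 5529. Pdk4, the kinase that holds pyruvate out of the citric acid cycle, changed by 0.49 and was not called (adjusted p 0.14), though it was without novirus replicate 3 (adjusted p 0.045). Esrra, a nuclear receptor of energy metabolism genes, fell by 0.27 (adjusted p 0.0195), a call lost without renin replicate 3 or 5 or novirus replicate 1 or 2 (adjusted p 0.0524 to 0.128).

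Among chaperones of the endoplasmic reticulum, the 4 genes called lower share a sequence in their promoters. Cells with unfolded protein in that compartment are known to raise such genes through the ER stress element, CCAAT and CCACG set 9 bases apart, in either orientation. It was 1 of 10 motifs searched in the 250 bases before the RefSeq start of each gene. Of 27025 genes with such a window 35 held it (0.130%), and of 4377 genes of at least 20 CPM 10 did (0.228%). Hspa5, Calr, Pdia6 and Hsp90b1, the 4 genes that fell in the unfolded protein list, all held it, and they were the only 4 of 319 falls with a window that did. The upstream sequences are shown 5′ to 3′ on the strand of the gene, with the element in capitals (RefSeq windows, GRCm38.p6). Bases inside the GENCODE gene model are left out, and for Hspa5, whose longest model covers the element, 30 bases around it are given.
Hspa5 (chr2:34772020-34772049, plus strand): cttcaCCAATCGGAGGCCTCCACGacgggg
Calr (chr8:84846935-84847181, minus strand): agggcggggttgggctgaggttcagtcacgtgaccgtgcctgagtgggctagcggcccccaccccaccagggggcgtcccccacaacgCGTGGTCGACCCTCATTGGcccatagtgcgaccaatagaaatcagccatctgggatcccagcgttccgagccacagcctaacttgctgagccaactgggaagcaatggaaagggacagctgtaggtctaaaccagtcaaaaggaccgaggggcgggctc
Pdia6 (chr12:17266339-17266544, plus strand): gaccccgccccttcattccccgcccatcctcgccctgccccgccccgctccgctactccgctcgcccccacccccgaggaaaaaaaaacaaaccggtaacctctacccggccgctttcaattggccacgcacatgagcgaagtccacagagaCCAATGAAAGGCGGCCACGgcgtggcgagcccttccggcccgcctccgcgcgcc
Hsp90b1 (chr10:86705510-86705694, minus strand): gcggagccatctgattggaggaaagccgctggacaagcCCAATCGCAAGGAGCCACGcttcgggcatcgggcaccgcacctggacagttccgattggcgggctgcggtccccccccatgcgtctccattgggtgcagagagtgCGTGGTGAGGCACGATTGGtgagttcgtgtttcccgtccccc

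Calr, the calcium-binding chaperone calreticulin, measured 336, 330, 302 and 283 CPM in control and 227 to 258 CPM (median 251) in renin libraries, without overlap. Its fall of 0.33 (SE 0.07, edgeR adjusted p 0.00146) was called in both fits and under each left-out library. Hspa5, the main chaperone of the compartment, measured 599, 581, 540 and 531 CPM against 388 to 487 (median 436), a fall of 0.35 (SE 0.11, adjusted p 0.0343). Pdia6, a disulfide isomerase, fell by 0.25 (adjusted p 0.037), and Hsp90b1, the local member of the 90 kDa chaperones, by 0.21 (adjusted p 0.041). These 3 were not called when genes of at least 20 CPM were fitted alone (adjusted p 0.171, 0.239 and 0.273). The calls were lost in 6, 8 and 8 of the 10 fits that left out 1 library (adjusted p up to 0.134, 0.227 and 0.219). Those were, for Hspa5, the fits without renin replicates 1, 2, 3 or 5 or novirus 1 or 2. For Pdia6 they were those without renin 1, 2, 3, 5 or 6 or novirus 1, 2 or 3, and for Hsp90b1 those without renin 1 to 5 or novirus 1, 2 or 3.

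The other 6 genes of at least 20 CPM with the element were not called. Canx changed by -0.12, Dnajc3 by -0.07, Acacb by -0.05, Pan2 by -0.04, Hnrnpa3 by -0.02 and Syvn1 by 0.02. They were chosen by the match and named after their values were seen. A match is a description of letters, not a site of binding. Of 19 unfolded protein genes of at least 20 CPM 4 fell and 0 rose, beside 7.04% and 2.66% of all genes at that level. When fitted alone, Calr fell and Atf4, a transcription factor of that response, rose, beside 55 falls and 178 rises among 5529 genes. At any level, 4 of the 31 genes in the list fell and 4 rose, beside 3.36% and 10.1%. The rises, with log2 fold changes of 1.18 to 1.46, were those of Asns, Psat1, Phgdh and Mthfd2, enzymes of amino acid and folate metabolism, all under 20 CPM and named after their values were seen. The other 9 motifs, which were those of NRF1, NF-kB and MEF2, ERR (TCAAGGTCA), AP-1 (TGANTCA), the E-box (CACGTG), the D-box (TTATGTAA), CRE (TGACGTCA) and the NRSF site in part (TTCAGCACC), were searched on both strands. TGANTCA stood in 5.33% of the falls and 6.60% of the rises with a window, beside 5.32% of all genes of at least 20 CPM, and 1.25% and 1.89% held the NF-kB motif beside 1.44%. Of the 8 stimulated-cell and chemokine genes among the rises that had a window, 2 held it. The CRE stood in 8 of 106 rises (7.55%) and 9 of 319 falls (2.82%), beside 3.13%.

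Of 22 NRF2 target and antioxidant genes 2 rose, Srxn1 and Txnrd1, and 2 fell, Txn2 and Sod2, beside 2.66% and 7.04% of all genes of at least 20 CPM. When fitted alone Sod2 was not called (adjusted p 0.0548), and the other 3 were. Srxn1, which repairs oxidized peroxiredoxins in the cytosol, measured 21, 19.9, 23.6 and 20.7 CPM in control and 28.4 to 34.5 CPM (median 31.5) in renin libraries, a rise of 0.56 (SE 0.09, edgeR adjusted p 8.21e-05). Txnrd1, cytosolic thioredoxin reductase, rose by 0.20 (adjusted p 0.0161, and 0.0682 without novirus replicate 4). Txn2, the mitochondrial thioredoxin, fell by 0.27 (SE 0.06, adjusted p 0.00216), from 116 to 134 CPM in control to 100.4 to 111 CPM in renin libraries. Sod2, the mitochondrial superoxide dismutase, fell by 0.25 (adjusted p 0.00611, and 0.0523 and 0.0617 without novirus replicate 1 or 2), as did Hspd1, the mitochondrial chaperonin, by 0.23 (adjusted p 0.0279). Hspd1 was 1 of 4 falls among 19 heat shock genes, and 0 of the 19 fell when fitted alone. The call of Hspd1 was lost without renin replicates 1, 3, 4 or 5 or novirus replicates 1 or 2 (adjusted p 0.0526 to 0.201). Bnip3, which marks mitochondria for removal, rose by 0.37 (adjusted p 0.0185, and 0.0545 without novirus replicate 4).

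Further falls under the naming rule were of single genes with varied roles. Mmp15, a membrane-bound matrix protease, measured 137, 140, 119 and 142 CPM in control and 84.7 to 114 CPM (median 95.4) in renin libraries, a fall of 0.50 (SE 0.10, edgeR adjusted p 0.00062) without overlap. Rtn4ip1, a mitochondrial oxidoreductase, fell by 0.43, Gstm7, a glutathione transferase, by 0.42 and the mitochondrial nuclease Endog by 0.42, and all 3 were called in both fits. Kpna2, a nuclear import adaptor, fell by 0.41 (adjusted p 0.0111), a call lost without novirus replicate 1 or 2 (adjusted p 0.0565 and 0.103). Gm12671 and Gm10359 are processed pseudogenes with the same values in each of the 10 chow libraries, so which copy their reads came from is uncertain. They measured 28.5, 64.0, 36.6 and 75.9 CPM in control and 0, 0, 0, 12.1, 0 and 4.06 CPM in renin replicates 1 to 6. Their fitted fall was 4.28 (adjusted p 0.0352). The call was lost without novirus 1, 2 or 4 or renin 1, 2, 3, 5 or 6 (adjusted p 0.0512 to 0.081), while the log2 fold change stayed between -5.99 and -3.99 over the 10 fits that left out 1 library. It was also lost under DESeq2, limma-voom, the replicate block and no filter on low counts, and in all under 17 of 25 alternatives (adjusted p over the 25 from 0.0117 to 0.999).

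No core clock gene of at least 20 CPM was called, and 2 of 11 clock output genes, Dbp and Usp2, were lower, beside 7.04% of all genes at that level. When fitted alone 0 of the 11 were called. Of 10 core clock genes 0 were called by edgeR or DESeq2 and 2 had an unadjusted p under 0.05, and Nr1d1, a clock repressor, ranged from 84.5 to 151 CPM in control and 63.6 to 128 CPM in renin libraries. Dbp, an output of the clock, measured 145, 131, 139 and 158 CPM against 81.5 to 128 (median 113), a fall of 0.39 (adjusted p 0.0469). The log2 fold change was -0.44 to -0.31 over the 10 fits that left out 1 library, and the call was lost in 8 of them (adjusted p 0.0594 to 0.145), all but those without renin replicate 5 or 6. Usp2, a deubiquitinase, fell by 0.29 (adjusted p 0.0171) and lost its call without renin replicate 3 or novirus replicate 1 or 2 (adjusted p 0.0512 to 0.126). At any level 2 of 14 core clock genes were called higher and 3 of 18 output genes lower, beside 10.1% and 3.36% over all genes tested. Among the 2 was Arntl, the clock activator also called Bmal1. It rose from 1.83 ± 0.233 to 3.42 ± 0.386 CPM (SD, n = 4 and 6), a log2 fold change of 0.90 (edgeR adjusted p 0.0058). The times at which hearts were taken are not in the sources used here. A clock score was the mean log2 CPM of a gene set with Dbp and Nr1d1 less that of a set with Arntl. The score was 3.67 to 4.02 in control and 3.16 to 3.47 in renin libraries. Its part in the other results cannot be told apart from the groups.

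**Figure D5:**
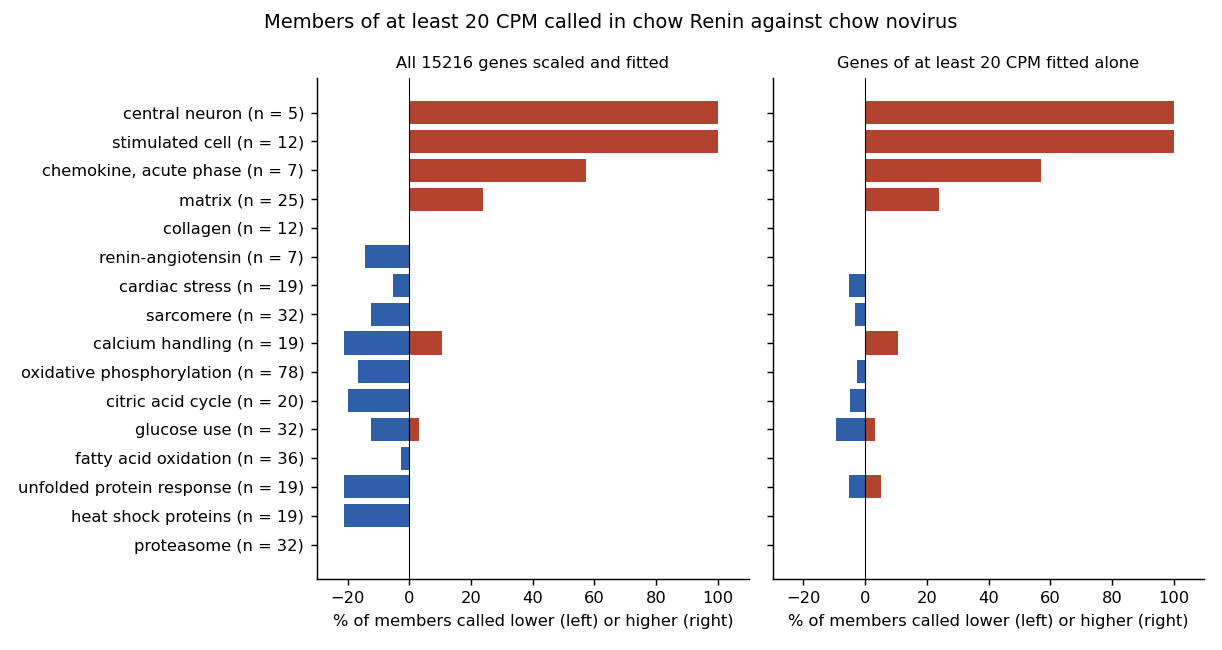
Percent of the members of at least 20 CPM in each of 16 gene lists that were called lower (left of 0) or higher (right of 0), with the number of members in parentheses, in the fit over all 15216 genes and in the fit over genes of at least 20 CPM alone. The rises of the first 4 lists are alike in both panels. Of their members 3 of 5, 9 of 12, 4 of 7 and 2 of 25 had a control mean under 20 CPM. The falls of oxidative phosphorylation go from 13 to 2 of 78 genes, those of the unfolded protein response from 4 to 1 of 19 and those of heat shock proteins from 4 to 0 of 19.

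Which library was extreme differed between rises and falls. Renin replicate 2 was the highest renin library for 64 of the 147 rises and replicate 1 for 39, and replicate 5 was the lowest for 68. Among the 389 falls, control replicate 3 was the lowest control for 271, and control replicate 2 was the highest for 202. Renin replicate 6 was the highest renin library for 125 falls.

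For many of the rises the effect of renin on HFD, in libraries that share none with the chow comparison, was different. Saa3 measured 17.9 ± 1.1 CPM in HFD novirus and 15.6 ± 0.894 CPM in HFD Renin hearts (SD, n = 6 and 5), a change of -0.20 (edgeR adjusted p 0.0246), and the difference between the diets was -2.35 (SE 0.08, edgeR interaction adjusted p 2.11e-15). Snap25 measured 16.9 ± 2.72 and 15.4 ± 3.54 CPM on HFD, and its effects differed by -2.51 (SE 0.25, adjusted p 1.07e-06). The interaction was called for 83 of the 147 rises (56.5%) and for 70 of the 389 falls (18.0%), beside 10.4% of all genes. These genes were chosen on the chow effect, which enters the interaction, so both shares are descriptions.

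Several stress genes not called on chow were called higher on HFD. Acta1 went from 108 ± 44.0 to 1617 ± 847 CPM, an effect that exceeded the one on chow by 3.04 (SE 0.76, interaction adjusted p 0.0145), and Xirp2 by 1.72 (SE 0.36, adjusted p 0.00337). For Nppa the effects differed by 2.38, which did not pass (adjusted p 0.111), and those of Myh7 by 0.98 (adjusted p 0.441). On HFD, where neither was called, Lmod3 changed by 0.13 and Actc1 by 0.16 (interaction adjusted p 0.00129 and 0.00354). For Srxn1 the changes were 0.56 and 0.36, for Bnip3 0.37 and 0.39, for Slc2a4 -0.40 and -0.31, and for Myh6 -0.25 and -0.30. Each of these 4 was called on both diets, and the interaction was not called (adjusted p 0.372, 0.943, 0.685 and 0.842).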

How the data were processed

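Estimated counts per transcript, which the authors deposited for each library in a column of read numbers, were not normalized, per the file headers. The submitters' processing notes name Salmon 1.10.2, DESeq2 1.40.2 and the builds GRCm38 and mm10, with no role given. Index, annotation and options are not given in the sources used here, and a deposited gene-level matrix was not used here. Transcripts were matched to GENCODE M21 (98.0% of 119215 per library), and their estimated counts, added up per gene, were rounded to whole numbers for the count tests. Of 23718 genes with reads, filterByExpr kept 15216.

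One edgeR fit (version 4.0.16, under R 4.3.3, TMM factors) took all 21 libraries with a term per group (estimateDisp, robust glmQLFit, quasi-likelihood F test). Adjustment ran over all genes tested, in the interaction too. CPM values are TMM-normalized. Alternatives used DESeq2 1.42.0, limma-voom (limma 3.58.1), other scalings and filters, covariates and left-out libraries. Library totals were 18.7 to 29.3 M estimated reads, and 21 pairs of chow libraries of the same group differed beyond counting noise (chi-square per degree of freedom 3.62 to 26.1). The labels do not say that replicates are separate animals, though the series text counts mice.

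Named genes are the 15 largest rises and 15 largest falls of at least 20 CPM without overlap, up to 4 called members of each of 41 lists (otherwise the 2 most abundant), the 10 smallest p-values under 20 CPM, and a fixed set of 20 genes. Of the 135 so named, 91 are described, and a few withheld genes are not reported here. Members, lists and tests were chosen with earlier results of these data known.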

Additional observations from a re-analysis of the deposited data

Results flagged for a closer look

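For 44 of the 91 genes described, the effect of renin on HFD differed from that on chow by edgeR's interaction test, beside 10.4% of all genes tested. The genes were chosen on the chow effect, which is part of that difference. Values are the log2 effect on HFD minus that on chow. For neuronal and glial genes they were Slc1a2 -2.47, Snap25 -2.51, Syt1 -2.57, Snhg11 -2.46, Kif5a -2.25, Map2 -2.24, Mbp -2.22, Slc17a7 -1.02, Camk2a -1.07, Tspoap1 -2.78, Zfp365 -2.02, Srgap3 -1.70, Trank1 -2.50 and Ppp2r2c -2.19. For cytokine, growth factor and other stimulated-cell genes they were Saa3 -2.35, Cxcl5 -2.47, Cxcl3 -2.21, Grem1 -2.49, Ptgs2 -2.22, Ereg -2.20, Lif -2.16, Spp1 -2.23, Cxcl1 -1.81, Ccl2 -2.10 and Il11 -2.15. Matrix genes gave Lox -1.85, Fn1 -0.94, Col4a1 0.77, Col4a2 0.64 and Col8a1 1.18. The remaining genes gave Tuba4a 0.78, Actc1 0.66, Rtn4ip1 0.51, Lmod3 0.56, Kpna2 0.63, Tmod1 0.31, Srl 0.61, Hk1 0.44, Calr 0.40, Hsp90b1 0.34, Hspd1 0.34, Acta1 3.04, Xirp2 1.72 and Ace 0.67.

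Single libraries stood apart from their own group in 12 of 182 groups examined, where chance sets apart about 1 in 20. Chow novirus replicate 3 was far the highest control for Thbs1 (34.8 CPM), Fn1 (99.9 CPM), Col1a1 (155 CPM), Postn (49.2 CPM) and Myl7 (254 CPM). Chow novirus replicate 1 was the highest control for Grem1 (7.02 CPM). Chow Renin replicate 2 was the highest of its group for Cxcl5 (42.0 CPM) and the lowest for Hsp90b1 (285 CPM). Chow Renin replicate 6 was the highest for Mmp15 (114 CPM) and Idh3a (446 CPM), and chow Renin replicate 4 for Gm12671 and Gm10359 (12.1 CPM each).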

How the results depend on the processing

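The rises of at least 20 CPM were within 1.5 times of 147 under DESeq2, limma-voom, 2 other scaling factors and each left-out library (121 to 151), whereas the falls ranged from 108 to 522, all such calls from 235 to 671, calls under 20 CPM from 1275 to 1597 and calls over all genes from 1512 to 2268 when 1 library was left out. Calls of at least 20 CPM, and the falls among them, numbered 336 and 234 with the clock score as covariate. Of these, 206 and 113 were also called, with the same sign, in the main fit. The numbers were 353 and 220 with no filter on low counts, 233 and 55 when fitted alone (26 interaction calls in place of 44), and 258 and 223 at 50 CPM (35 rises). At 10 CPM there were 303 rises, and upper-quartile factors gave 198 falls. The 10 chow libraries alone gave 805 calls (221 higher, 584 lower). The central neuron covariate left 32 calls over all genes, 20 under and 12 over 20 CPM (11 higher, 1 lower), and 10 interaction calls. Alternatives chosen after seeing the data gave 330 calls with the scale set from genes of at least 20 CPM (228 higher, 102 lower), 228 with 103 falls without renin replicates 1 and 2, and 282 with 155 falls without the 3 libraries high in Myl7. Beyond what a smaller or different set of genes or libraries gives by construction, the cause was not tested.

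Log2 fold changes turned sign with the central neuron covariate for Slc17a7 (-0.33), Camk2a (-0.22), Lox (-0.088), Thbs1 (-0.28), Col1a1 (-0.29), Col3a1 (1.05), Col4a1 (0.73), Col4a2 (0.68), Kpna2 (0.031), Jph2 (0.015), Adrb1 (0.34), Pdia6 (0.027), Rnpep (0.055), Nppa (-0.63), Nppb (0.14), Pdk4 (-0.34) and Nr1d1 (0.71). The clock covariate turned Postn (-0.36), Col8a1 (-0.13), Nppa (-0.86), Ankrd1 (-0.042), Xirp2 (-0.44), Agt (-0.52) and Myl7 (0.71), and limma-voom Nppa (-0.10) and Myl7 (1.21). With the clock covariate 28 of the 91 genes described kept their sign but lost their call. Among them were Slc2a1, Slc2a4, Eno3, Cycs, Txn2, Smtn, Gstm7, Endog, Thbs1 and Arntl. Without renin replicates 1 and 2, Col1a1 (-0.17), Nppa (-0.32) and Agt (-0.0031) turned, and without the 3 libraries high in Myl7, Agt (-0.0026) and Myl7 (1.21). When 1 library was left out, values ranged across 0, from -0.095 to 0.30 for Col1a1, -0.18 to 0.52 for Nppa, -0.14 to 0.26 for Agt, -0.033 to 0.80 for Postn and -1.54 to 6.33 for Myl7, the upper end without novirus replicate 3 (for Agt, novirus replicate 2).

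The labels do not state a pairing by replicate number. Deviations of same-numbered chow libraries correlated at -0.12, 0.07, 0.33 and 0.10, and 1 of 4 matched its own number best. A shared litter, batch or day cannot be judged from 4 such values. With the replicate block there were 2246 calls over all genes, 1585 under and 661 over 20 CPM (175 higher, 486 lower), with Myl7 at 2.92. Depth limits genes such as Agt, near 1 CPM in every library.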
